A study of Mus musculus with 4 samples.

Results

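The 10 genes described here encode the core of mitochondrial fatty acid β-oxidation in mouse: the carnitine shuttle (Cpt1a, Cpt2, Slc25a20), the acyl-CoA dehydrogenases (Acadm, Acadl, Acadvl), the trifunctional protein (Hadha, Hadhb) and the electron transfer flavoprotein (Etfa, Etfb). They were taken by symbol from the 32285 features of 4 single-cell libraries of mouse aorta, and all 10 were found in each library. Unique molecular identifiers (UMIs, which count captured transcripts) were summed for each gene over the barcodes of a cell class in a library. Each sum is given as CPM, the UMIs of the gene per 1000000 UMIs of that class in that library. Brackets after a level or a ratio hold its 95% interval, which covers counting error only.

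Long-chain fatty acids enter the mitochondrion as acylcarnitines. Cpt1a on the outer membrane makes the acylcarnitine, Slc25a20 carries it across the inner membrane and Cpt2 turns it back into acyl-CoA. A dehydrogenase that fits the chain length then takes electrons from the acyl-CoA, and the electron transfer flavoprotein passes them towards the respiratory chain. The trifunctional protein carries out the later steps of each cycle on long chains. In the arterial wall, macrophages and smooth muscle cells take up lipid during atherosclerosis, and β-oxidation is one route by which a cell disposes of fatty acids.

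Aortas came from mice of 4 groups, each with 1 library, and values are given in this order throughout: WT under normal diet, LysM-DKO under normal diet, WT/ApoE-/- under western diet and LysM-DKO/ApoE-/- under western diet. Epsins, which help to form endocytic vesicles, and cholesterol efflux are named in the title of the series. LysM-DKO itself is left unexplained by the labels, and the age, strain and number of mice are not given in the sources used here. LysM names a locus whose promoter is active in myeloid cells, so among the classes compared only macrophages belong to the lineage in the name. Both western diet libraries carry ApoE-/-, and Xist was at 1707 and 1215 CPM in normal diet macrophages but 0.511 and 0 CPM in western diet macrophages. The file headers also give different software versions for the diets. Diet, ApoE genotype, sex of the cells and software version cannot be told apart. Since each group is 1 library, groups could not be tested against each other, and every ratio compares libraries.

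Of 13831, 15826, 29724 and 11414 barcodes, 7758, 8230, 13744 and 8133 passed the limits of 1000 UMIs or more and 10% mitochondrial UMIs or less. Classes were set by marker UMIs, and 6 of 6 further markers of each class were above the other classes in every library. Macrophages numbered 92, 208, 939 and 135 barcodes and smooth muscle cells 3690, 3487, 8836 and 6636. Of the macrophage barcodes, 56, 133, 408 and 50 also met the rule of another class. The B and T classes of LysM-DKO/ApoE-/- on western diet held only 14 and 33 barcodes. Pairs of libraries shared 38 to 129 barcode sequences. Smooth muscle RNA was present in every class: Acta2, an actin of smooth muscle, was in macrophages at 14.3, 16.3, 24.1 and 12.3% of its smooth muscle level. In the endothelial class Myh11, a smooth muscle myosin, was at 80.7, 69.4, 48.6 and 60.1% of its smooth muscle level, so levels there describe a mixture. Apoe in macrophages was at 7012 and 5435 CPM on normal diet and 8.44 and 8.55 CPM in the ApoE-/- libraries. Lyz2, the gene of the LysM locus, was at 3696 and 4126 CPM in the WT macrophages and 977 and 798 CPM in those of LysM-DKO. Epn1 was in macrophages at 81.7, 54.5, 52.4 and 42.7 CPM and Epn2 at 35.6, 33.6, 33.2 and 15.7 CPM, which checks no label, since 3' reads can lie outside a deleted part.

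The 10 genes lie at 9 places on 8 chromosomes. Only Hadha and Hadhb adjoin: on GRCm38, Hadha ends its reverse-strand span at chr5:30118304-30155162 and Hadhb begins its forward-strand span at chr5:30155248-30184593, head to head with 85 bases between them. Those 85 bases (chr5:30155163-30155247, forward strand) are printed because both subunits of 1 enzyme start from them, with the GC box GGGCGG in capitals. The 250 bases before the starts of Acadm (chr3:153944644-153944893, reverse strand) and Etfb (chr7:43443822-43444071, forward strand) are printed because of their diet ratios below. Acadm was more than 1.5 fold higher on western diet in macrophages of LysM-DKO, and Etfb in smooth muscle cells of both genotypes. Capitals mark AGGTCA, the core of many nuclear receptor sites, here on the other strand as TGACCT, and the motif of NRF1, a regulator of mitochondrial genes (GCGC, any base, TGCGC), here also on the other strand.

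Hadha-Hadhb gap: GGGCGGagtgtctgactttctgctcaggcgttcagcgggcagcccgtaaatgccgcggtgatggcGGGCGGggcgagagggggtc
Acadm: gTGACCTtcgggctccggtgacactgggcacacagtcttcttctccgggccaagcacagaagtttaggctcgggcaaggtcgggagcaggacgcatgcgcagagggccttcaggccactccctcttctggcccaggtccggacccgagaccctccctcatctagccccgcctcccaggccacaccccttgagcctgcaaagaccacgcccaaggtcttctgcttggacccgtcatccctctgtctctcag
Etfb: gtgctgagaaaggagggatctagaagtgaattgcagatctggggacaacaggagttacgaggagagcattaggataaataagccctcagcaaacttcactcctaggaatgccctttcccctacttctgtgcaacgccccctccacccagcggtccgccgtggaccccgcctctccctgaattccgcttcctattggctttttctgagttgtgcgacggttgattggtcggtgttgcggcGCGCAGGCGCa

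The bases are those of RefSeq on GRCm38.p6, where all 10 genes matched a promoter entry. The GC box was present on either strand in the 250 upstream bases of 6 genes (Cpt1a, Cpt2, Slc25a20, Acadl, Hadha, Hadhb) and in 32.7% of 32851 promoters. AGGTCA was present before Cpt1a, Acadm and Acadvl and in 14.02% of promoters. The NRF1 motif was present before Etfb alone among the 10 and in 3.74% of promoters. CCAAT was present before Cpt1a, Etfa and Etfb and in 33.8% of promoters. The PPAR response element, AGGTCA repeated after any 1 base, was before none of the 10 and in 0.0335% of promoters, and TCAAGGTCA of the oestrogen-related receptors was before none and in 0.387%. A match describes letters in this window only, and AGGTCA lies within both longer elements.

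The 10 genes together were higher in the cells of the wall than in lymphocytes in each library. In smooth muscle cells their summed level was 577 (567 to 587), 567 (556 to 578), 689 (680 to 698) and 713 (705 to 720) CPM. In fibroblasts it was 559.9, 576, 591 and 626 CPM, and in the endothelial class 554, 561, 604 and 644 CPM. T cells were at 368, 425, 481 and 406 CPM, the last from 49 UMIs, and B cells were at 387, 413, 419.7 and 379 CPM, the last from 19 UMIs. Macrophages stood with the lymphocytes on normal diet, at 419 (363 to 481) and 404 (368 to 444) CPM. On western diet they reached 592 (568 to 617) and 524 (472 to 581) CPM. The first of these lay in the range of the endothelial class and fibroblasts, and the second lay below every wall class of its library and overlapped T cells. Among barcodes that met 1 class rule only, the macrophage sums were 417, 381, 589 and 515 CPM and the endothelial sums 521, 543, 505 and 548 CPM.

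**Figure D1:**
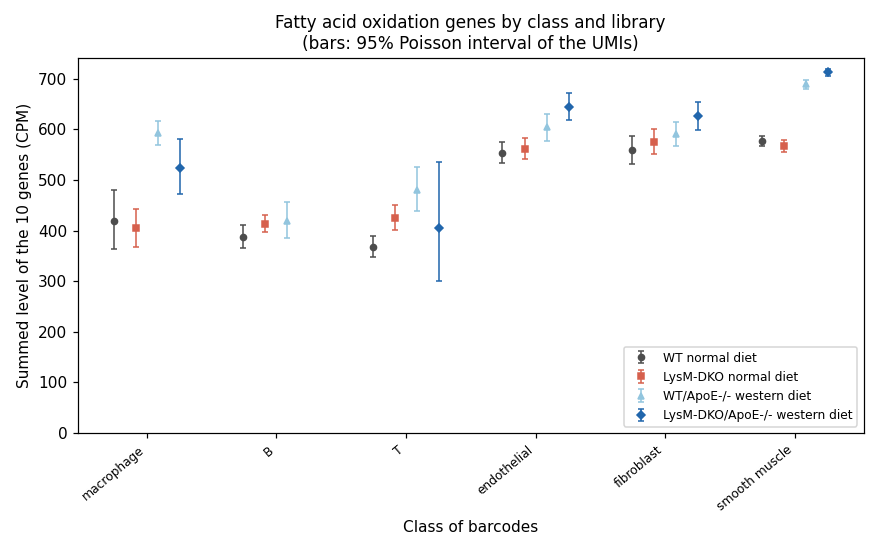
Summed level of the 10 genes in CPM (vertical axis) in each class (horizontal axis) and library (colour and shape), with bars for the 95% Poisson interval. Sums under 100000 UMIs are left out. Smooth muscle cells were at 577 and 567 CPM on normal diet and at 689 and 713 CPM on western diet, and macrophages were at 419 and 404 CPM and at 592 and 524 CPM.

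Of the wall classes, smooth muscle was compared gene by gene with lymphocytes and macrophages, and only some of the genes differed by 1.5 fold. A gene was counted as past the fold at a ratio of at least 1.5, with at least 50 UMIs seen over both sums. At least 20 UMIs also had to be seen or expected in the smaller class. The expected UMIs follow the smooth muscle level, so a gene low in the smaller class could enter through smooth muscle alone. In WT on normal diet Cpt2 against T cells and Acadvl against macrophages entered that way. The shares of all genes follow the same rule. Smooth muscle was past 1.5 fold above T cells for 6 of 10 genes in WT on normal diet, where 39.6% of all 10657 genes compared were past it. The 6 were Cpt2, Acadm, Acadl, Acadvl, Etfa and Etfb. In LysM-DKO on normal diet the count was 3 of 9 beside 34.3% of all genes, and in WT/ApoE-/- on western diet 4 of 8 beside 31.6%. Acadm and Etfa were in all 3 of these sets. Above B cells the counts were 5 of 9, 4 of 10 and 4 of 8, beside 36.7, 35.2 and 37.1%. Above macrophages they were 3 of 8, 4 of 8, 1 of 10 and 2 of 8 over the 4 libraries, beside 39.3, 35.1, 29.3 and 34.0%. Etfa was in each of these 4 sets, and none of the 10 genes was past 1.5 fold in the direction of lymphocytes or macrophages. In that direction were 25.4, 26.6 and 33.2% of all genes against T cells, 26.2, 24.9 and 31.3% against B cells and 26.6, 22.7, 21.7 and 28.2% against macrophages. The T and B sums of LysM-DKO/ApoE-/- on western diet had too few UMIs to compare any of the 10. Above T cells of LysM-DKO on normal diet the count was near the share of all genes. Above macrophages it was near or below that share in every library other than LysM-DKO on normal diet. The other counts of genes higher in smooth muscle exceeded the share, but each rests on 10 genes or fewer.

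The genes of the carnitine shuttle showed little order between classes. Cpt1a, the step that malonyl-CoA inhibits, was in smooth muscle cells at 46.0 (43.3 to 48.9), 45.2 (42.1 to 48.5), 44.5 (42.3 to 46.8) and 43.5 (41.6 to 45.4) CPM, and these 4 intervals overlap. In macrophages it was at 62.8 (42.4 to 89.7), 50.9 (38.4 to 66.1), 42.2 (36.0 to 49.1) and 44.2 (30.0 to 62.7) CPM. In WT on normal diet the order by level was macrophage, fibroblast, endothelial, smooth muscle, T and B, and only the step from smooth muscle to T separated neighbouring intervals. In fibroblasts Cpt1a was at 52.4, 51.8, 47.6 and 59.6 CPM, and in B cells of the first 3 libraries at 32.7, 39.3 and 32.9 CPM.

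Slc25a20, the carnitine-acylcarnitine carrier of the inner membrane, had overlapping intervals between all neighbouring classes in each library. Smooth muscle cells had it at 13.1 (11.7 to 14.7), 14.96 (13.2 to 16.9), 13.4 (12.2 to 14.7) and 10.99 (10.1 to 11.97) CPM, lowest in LysM-DKO/ApoE-/- on western diet. Its macrophage levels rested on 5, 13, 57 and 9 UMIs, at 10.5, 11.8, 14.6 and 12.8 CPM. Cpt2, the inner membrane transferase, rested on 1, 5, 20 and 2 UMIs in macrophages, too few to order the libraries. Smooth muscle cells had Cpt2 at 5.75 (4.81 to 6.81), 6.11 (5.00 to 7.40), 6.66 (5.83 to 7.58) and 6.72 (6.01 to 7.49) CPM. In fibroblasts it was at 4.22, 2.73, 5.12 and 11.4 CPM, from 12, 10, 20 and 38 UMIs, and the last value stands above the others.

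Each of the 3 dehydrogenases had a wall class, smooth muscle or endothelial, at the top of its order in every library. Acadm, which acts on medium chains, was in smooth muscle cells at 127 (123 to 132), 124 (119 to 130), 130.4 (127 to 134) and 154 (150.4 to 157) CPM and was the highest of the classes in every library. In macrophages Acadm was at 81.7 (58.1 to 112), 54.5 (41.6 to 70.2), 122 (112 to 134) and 119.7 (95.5 to 148) CPM. Both western diet macrophage values lay above both normal diet values, and for LysM-DKO the intervals of the diets are apart. In T cells of the first 3 libraries Acadm was at 54.5, 44.9 and 58.2 CPM and in B cells at 54.4, 49.6 and 45.4 CPM, the lowest places in each of these orders.

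Acadl, the long-chain dehydrogenase, was in smooth muscle cells at 67.0 (63.7 to 70.4), 57.9 (54.4 to 61.6), 73.3 (70.5 to 76.2) and 80.2 (77.7 to 82.7) CPM. Macrophages had Acadl at 62.8 (42.4 to 89.7), 37.2 (26.7 to 50.5), 53.7 (46.7 to 61.5) and 61.3 (44.3 to 82.5) CPM. LysM-DKO on normal diet was the lowest library in both classes. The span of Acadl overlaps Gm15793 on the same strand, whose reads the counting could share. Acadvl, the very-long-chain dehydrogenase of the inner membrane, was in smooth muscle cells at 47.3 (44.5 to 50.2), 44.8 (41.7 to 48.0), 58.6 (56.0 to 61.2) and 60.1 (57.9 to 62.3) CPM. Macrophages had it at 14.7 (5.89 to 30.2), 30.0 (20.6 to 42.1), 42.4 (36.2 to 49.4) and 35.6 (23.1 to 52.6) CPM, from 7 UMIs in the first library. In T cells Acadvl was at 14.7, 31.8 and 35.1 CPM in the first 3 libraries. WT on normal diet was thus the lowest library for Acadvl in both macrophages and T cells.

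The trifunctional protein genes gave another order. Hadha, the α subunit, was highest in T or B cells on normal diet: T cells were at 80.8 and 81.6 CPM and B cells at 72.7 and 82.6 CPM, beside 64.5 and 64.9 CPM in smooth muscle cells. Macrophages were lowest there, at 48.2 (30.5 to 72.3) and 61.8 (48.0 to 78.3) CPM, though all neighbours in these orders overlapped. In WT/ApoE-/- on western diet macrophages were the highest class for Hadha at 91.8 (82.5 to 102) CPM, while those of LysM-DKO/ApoE-/- were at 61.3 (44.3 to 82.5) CPM. Smooth muscle cells of the western diet libraries were at 78.9 and 81.5 CPM.

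Hadhb, the β subunit with the thiolase site, was in T cells at 74.4, 81.3 and 82.3 CPM in the first 3 libraries. Smooth muscle cells had Hadhb at 58.2 (55.1 to 61.3), 62.3 (58.7 to 66.2), 68.2 (65.5 to 71.1) and 65.9 (63.6 to 68.3) CPM. In macrophages it was at 41.9 (25.6 to 64.7), 38.2 (27.5 to 51.6), 59.8 (52.4 to 68.0) and 48.4 (33.6 to 67.7) CPM, the lowest class on normal diet. Hadha made up 48.4 to 61.8% of the UMIs of the pair over the 21 class sums with at least 50 UMIs of it. The share was above 50% with its interval in macrophages of LysM-DKO on normal diet (61.8%, 52.1 to 70.9) and of WT/ApoE-/- on western diet (60.5%, 56.5 to 64.5). This was not particular to macrophages. It also held in B cells of LysM-DKO on normal diet (58.0%, 54.4 to 61.5) and fibroblasts of WT/ApoE-/- (57.6%, 53.1 to 62.0). In the endothelial class it held in both western diet libraries (55.0%, 50.3 to 59.6, and 58.9%, 54.4 to 63.3). The 4 shares in smooth muscle cells were 52.6 (50.7 to 54.4), 51.0 (48.9 to 53.1), 53.6 (52.3 to 55.0) and 55.3% (54.1 to 56.4). Among these only the interval of LysM-DKO on normal diet included 50%. The macrophage interval of WT/ApoE-/- on western diet lies above that of smooth muscle cells in the same library. The 2 genes begin from the same 85 bases printed above.

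Etfa separated the 3 wall classes from macrophages and lymphocytes in every library, leaving out the B sum of LysM-DKO/ApoE-/- on western diet, where 7 UMIs gave 139 (56.1 to 287) CPM. This gene, for the α subunit of the electron transfer flavoprotein, was in fibroblasts at 107.5, 112, 112 and 113 CPM, nearly level over the libraries. Smooth muscle cells had it at 93.4 (89.5 to 97.4), 85.7 (81.4 to 90.2), 124 (121 to 128) and 115 (112 to 118) CPM, with both western diet values above both normal diet values. In macrophages it was at 44.0 (27.2 to 67.2), 49.96 (37.6 to 65.0), 80.0 (71.4 to 89.4) and 61.3 (44.3 to 82.5) CPM. Each of these intervals ends below the lowest wall class of its library.

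Etfb, the β subunit, was in smooth muscle cells at 54.9 (51.9 to 58.0), 60.7 (57.1 to 64.5), 90.7 (87.6 to 94.0) and 94.8 (92.1 to 97.6) CPM. The diets lie apart there by several interval widths. The span of Etfb overlaps Gm45233, Gm44816 and Mir7051 on the same strand, so reads could be shared here too. Macrophages had Etfb at 50.3 (32.2 to 74.8), 65.4 (51.2 to 82.4), 80.3 (71.6 to 89.7) and 76.9 (57.8 to 100.4) CPM. In T cells Etfb was at 21.8, 31.8 and 65.2 CPM in the first 3 libraries, and in fibroblasts at 90.3, 96.3, 95.2 and 108 CPM. Fibroblasts were the highest class for Etfb in each library. The share of Etfa in the pair ran from 43.3 to 70.5% over 21 class sums. The smooth muscle shares were 63.0 (61.4 to 64.6), 58.5 (56.6 to 60.5), 57.8 (56.7 to 59.0) and 54.9% (53.9 to 55.8). The macrophage shares were 46.7, 43.3, 49.9 and 44.3%, under 50% in all 4 libraries, with intervals that include 50%.

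**Figure D2:**
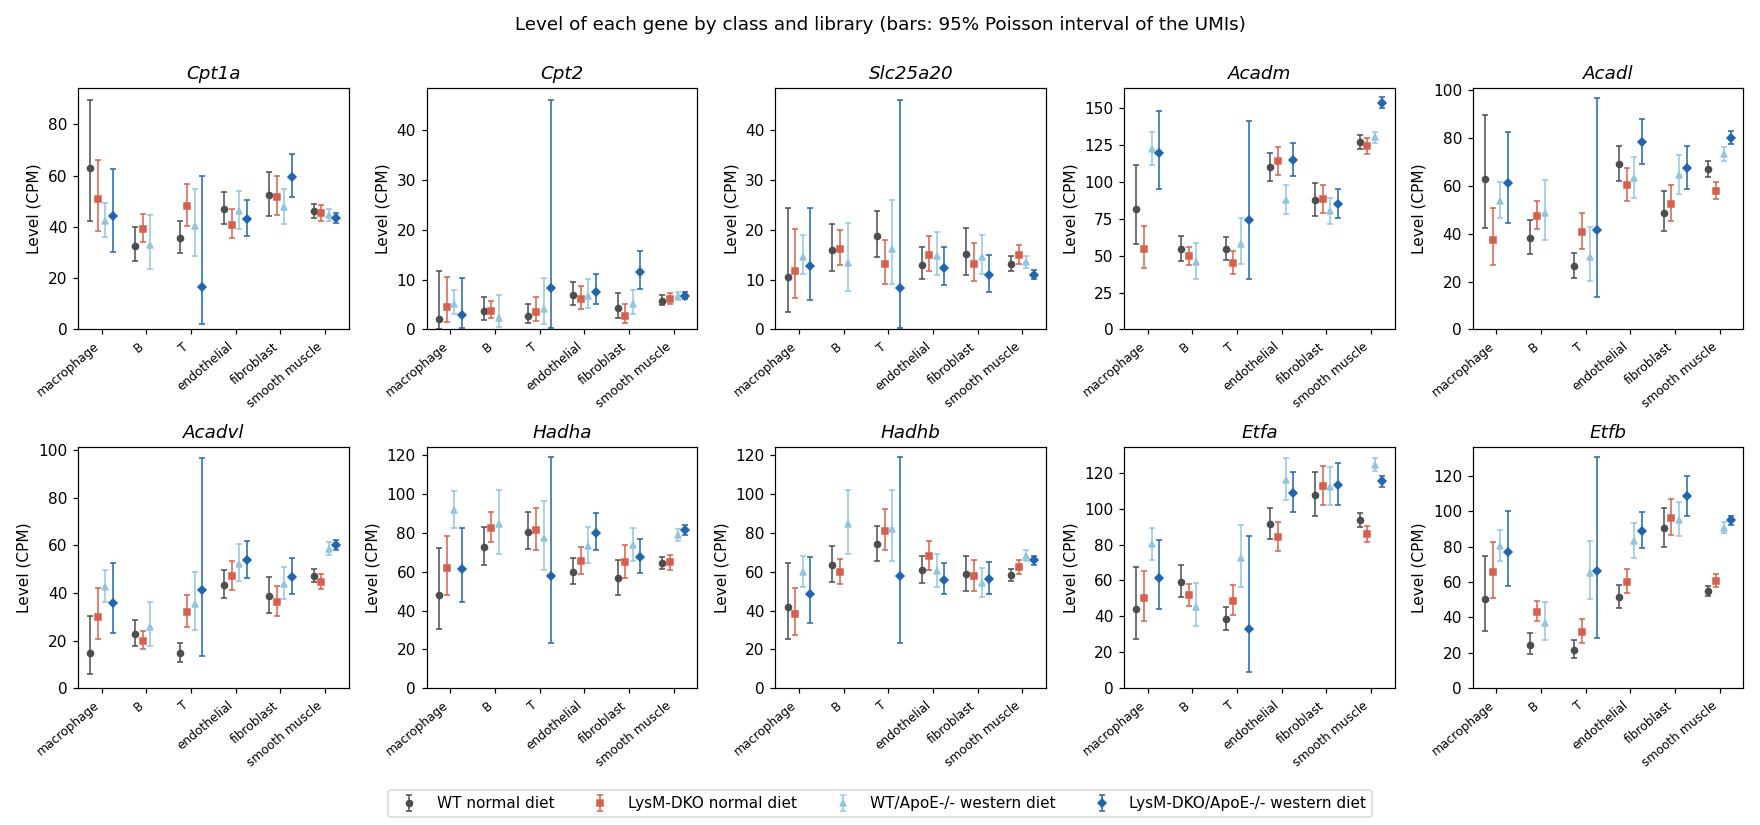
Level of each gene in CPM (vertical axes, each with its own scale) by class (horizontal axes) and library (colour and shape), with 95% Poisson bars. Acadm was highest in smooth muscle cells of each library, Hadha and Hadhb were highest in T or B cells on normal diet, and Etfb in smooth muscle cells stood at 54.9 and 60.7 CPM on normal diet and 90.7 and 94.8 CPM on western diet.

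**Figure D3:**
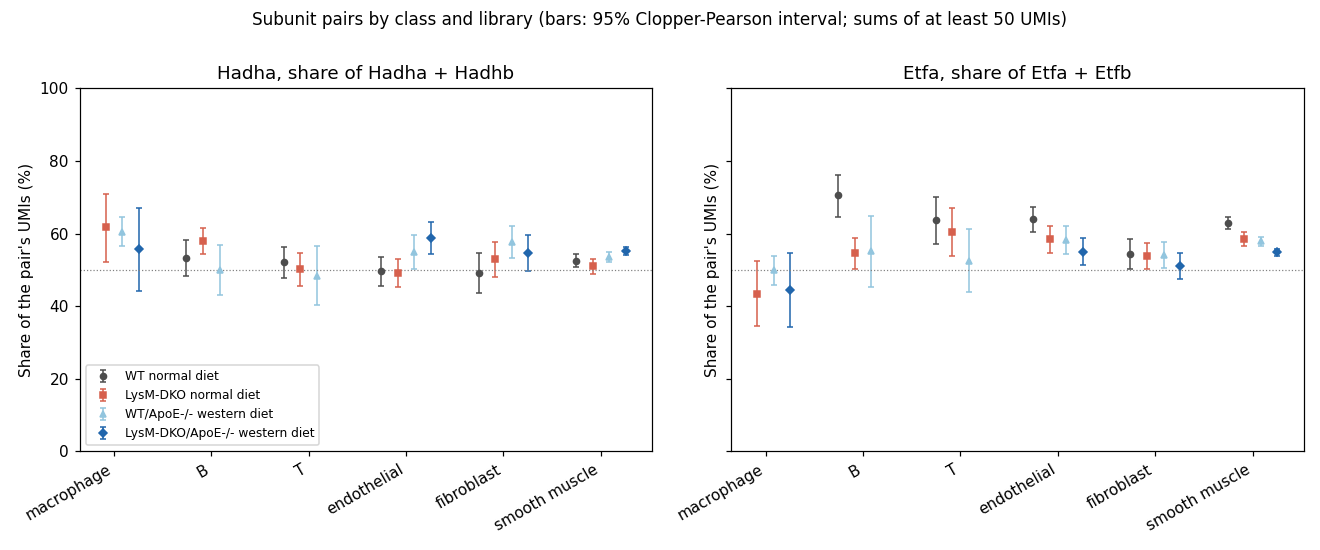
Share of Hadha in Hadha + Hadhb (left) and of Etfa in Etfa + Etfb (right), in percent of the UMIs of the pair, by class and library, with 95% Clopper-Pearson bars and a dotted line at 50%. The share of Etfa in smooth muscle cells was highest in WT on normal diet at 63.0% and lowest in LysM-DKO/ApoE-/- on western diet at 54.9%.

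In macrophages LysM-DKO and WT gave nearly the same summed level under normal diet, with the dehydrogenases Acadm and Acadl lower. The sum was 404 CPM in LysM-DKO and 419 CPM in WT, a log2 ratio of -0.05 (-0.30 to 0.20). Acadm (-0.59, -1.19 to 0.04) and Acadl (-0.76, -1.47 to -0.02) were past 1.5 fold lower in LysM-DKO, 2 of the 7 genes with at least 50 UMIs, beside 8.21% of all 4140 such genes. None was past 1.5 fold higher, beside 11.3% of all genes. The other 5 ran from -0.32 for Cpt1a to 0.36 for Etfb, and 3 of the 7 ratios were positive. Acadm lost its place past 1.5 fold in 4 other settings and was at -0.52 with up to 20% mitochondrial UMIs. Among barcodes meeting 1 class rule none of the 10 genes reached 50 UMIs in this contrast. The sum was 0.02 with equal weight for each cell and 0.05 without Acadm, so its sign depended on the setting.

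On western diet the summed level was 524 CPM in LysM-DKO/ApoE-/- macrophages and 592 CPM in WT/ApoE-/-, a log2 ratio of -0.17 (-0.34 to -0.02). None of the 9 genes with 50 UMIs was past 1.5 fold, beside 15.6% of all genes past it in the lower and 9.7% in the higher direction. Hadha was nearest to it at -0.57 (-1.07 to -0.12), followed by Etfa at -0.37 (-0.88 to 0.08) and Hadhb at -0.29 (-0.87 to 0.22). Acadm was at -0.02 (-0.38 to 0.31) and Acadl at 0.20 (-0.32 to 0.67), so the pair that was lower in LysM-DKO on normal diet was near 0 here. The ratio of the sum ran from -0.21 to -0.12 over 8 other settings, and with median-ratio scaling its interval (-0.29 to 0.03) included 0. The count past 1.5 fold was 1 of 9 with up to 20% mitochondrial UMIs and 1 of 8 among barcodes meeting 1 class rule.

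Macrophages of the western diet libraries held more of these transcripts than those of the normal diet libraries. For WT the summed level was 592 against 419 CPM, a log2 ratio of 0.50 (0.29 to 0.72). The median ratio of all 7846 genes with 50 UMIs was itself 0.28 in this contrast, and the sum was 0.22 (0.01 to 0.44) when scaled to that median. Acadvl (1.44, 0.46 to 2.87), Hadha (0.90, 0.32 to 1.61), Etfa (0.83, 0.23 to 1.58) and Etfb (0.65, 0.08 to 1.34) were past 1.5 fold higher. These 4 of 9 compare with 35.9% of all genes, so the share is near the background. Scaled to the median of all genes, Etfa was at 0.56 and Etfb at 0.37, no longer past 1.5 fold, and Etfb was at 0.13 among barcodes meeting 1 class rule. Cpt1a was the only one past it in the other direction at -0.59 (-1.14 to 0.04), beside 14.7% of all genes, and with up to 20% mitochondrial UMIs it was at -0.54. Acadm was at 0.56 (0.11 to 1.09), just inside 1.5 fold. Among barcodes meeting 1 class rule, Hadha was at 2.002.

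For LysM-DKO the summed level was 524 against 404 CPM, a log2 ratio of 0.38 (0.17 to 0.58), beside a median of 0.10 over all genes. Acadm (1.13, 0.64 to 1.64) and Acadl (0.72, 0.07 to 1.37) were past 1.5 fold higher, 2 of 8 genes beside 17.9% of all genes, and none was past it lower, beside 11.9%. The leading genes thus differed between the genotypes: Hadha was at -0.01 (-0.60 to 0.56) here, and Acadl was at -0.25 (-0.78 to 0.38) in WT. Without Acadm the ratio of the sum for LysM-DKO was 0.21 (-0.02 to 0.44). These differences between contrasts were not tested.

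Other features of the macrophage barcodes differed between diets too. Of 6 smooth muscle markers, 6 were higher in WT/ApoE-/- on western diet than in WT on normal diet, with summed levels of 4283, 4474, 8277 and 4887 CPM over the libraries, and none was at 0. Among barcodes meeting 1 class rule Acta2 was instead lower on western diet, at 1702, 1645, 772 and 560.1 CPM, and the summed level of the 10 genes there was 417, 381, 589 and 515 CPM. After the smooth muscle share given by Acta2 was subtracted, the diet ratios of the sum were 0.52 for WT and 0.42 for LysM-DKO. Dissociation stress genes summed to 15531, 11963, 8491 and 10808 CPM, and their part in the result was not tested.

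Macrophages were also divided by 2 gates: at least 2 UMIs of Trem2 and Gpnmb, known from lipid-laden macrophages, and otherwise at least 2 UMIs of Lyve1 and Folr2, known from resident macrophages. The Trem2/Gpnmb gate held 14.1, 12.5, 49.8 and 39.3% of macrophage barcodes and the Lyve1/Folr2 gate 37.0, 30.8, 2.24 and 28.9%. Within the Trem2/Gpnmb gate the 10 genes summed to 419 (308 to 557), 304 (230.1 to 394), 624 (593 to 656) and 557 (486 to 636) CPM. Within the Lyve1/Folr2 gate they summed to 396, 454, 602 and 601 CPM, from 66, 132, 44 and 71 UMIs. Barcodes in neither gate were at 438, 411, 539 and 411 CPM. The western diet values exceeded the normal diet values of the same genotype within both gates. In the Lyve1/Folr2 gate the intervals of the diets overlapped for both genotypes. The normal diet values of the Trem2/Gpnmb gate rested on 13 and 26 barcodes. Among barcodes in neither gate the western diet value was higher for WT, with overlapping intervals, and both LysM-DKO values were 411 CPM.

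**Figure D4:**
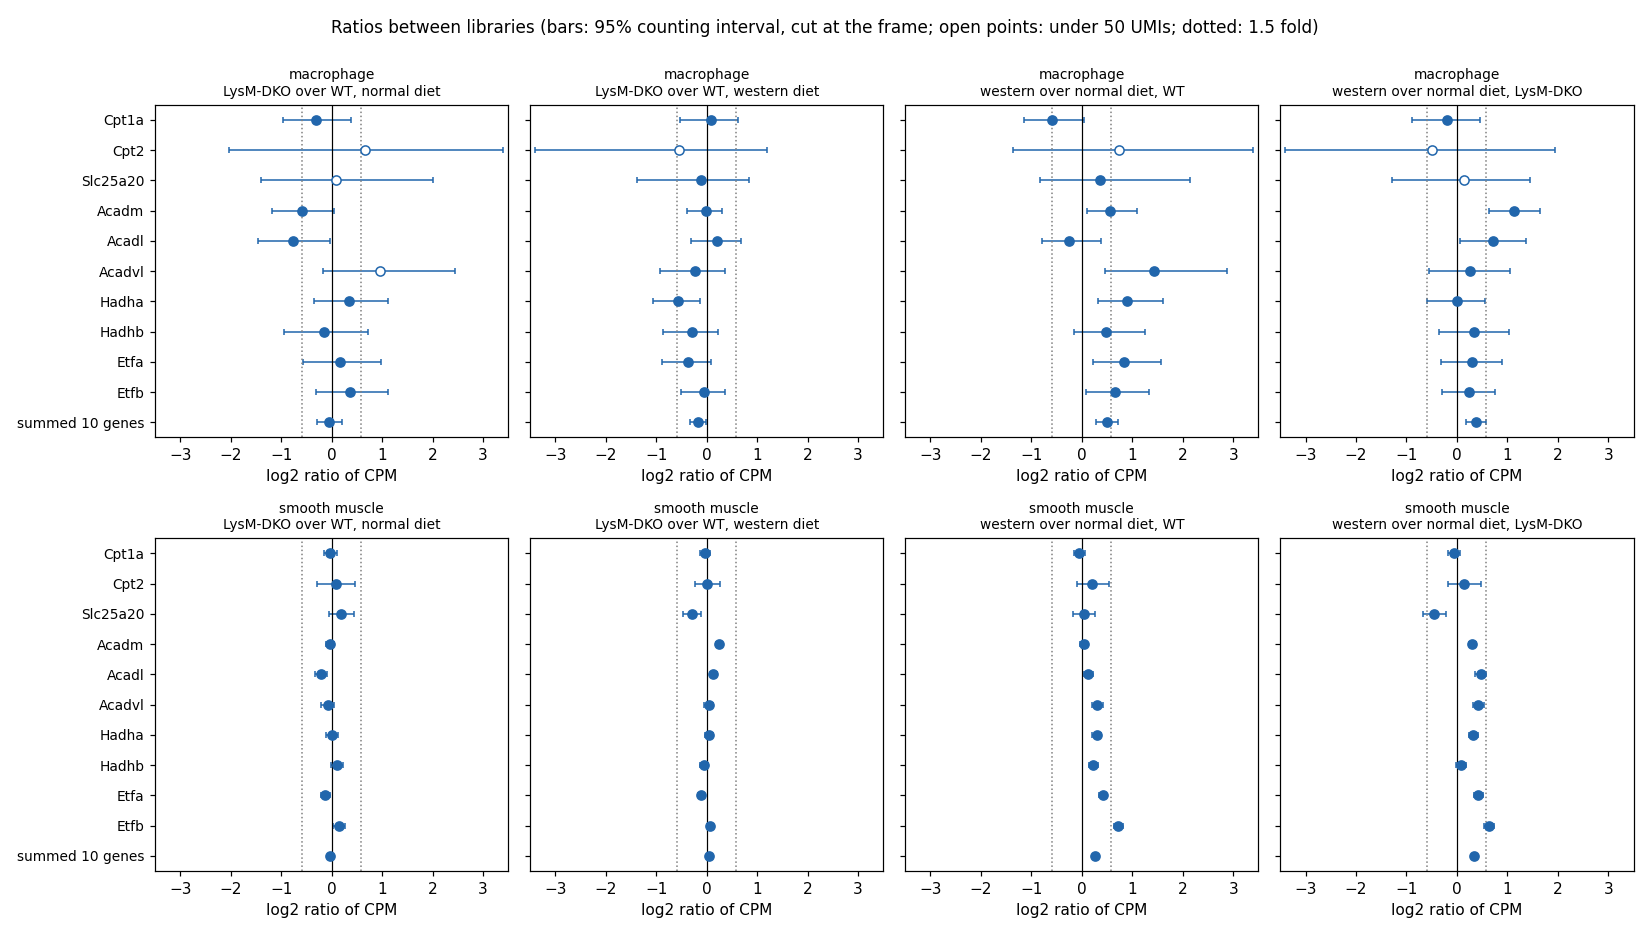
Log2 ratios of CPM (horizontal axes) for each gene and their sum in macrophages (top row) and smooth muscle cells (bottom row), in the 4 contrasts, with 95% counting intervals. Open points have under 50 UMIs and dotted lines mark 1.5 fold. The macrophage intervals are wide, and in smooth muscle cells only Etfb passed 1.5 fold, at 0.72 and 0.64 in the diet contrasts.

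Smooth muscle cells gave the most precise ratios, and the genotype ratios there were small. On normal diet the summed level was 567 CPM in LysM-DKO and 577 CPM in WT, a log2 ratio of -0.03 (-0.06 to 0.01). None of the 10 genes was past 1.5 fold, beside 8.5% of 13326 genes past it in the higher and 2.18% in the lower direction. Acadl (-0.21, -0.33 to -0.09) was the farthest from 0 and Etfb (0.15, 0.03 to 0.27) the farthest above it among genes whose interval left 0. On western diet the summed levels were 713 and 689 CPM, a ratio of 0.05 (0.02 to 0.07), and again none was past 1.5 fold, beside 4.61% higher and 12.3% lower. Acadm (0.24, 0.19 to 0.29) and Slc25a20 (-0.29, -0.47 to -0.11) stood apart from 0, and without Acadm the ratio of the sum was 0.00 (-0.03 to 0.03).

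Between diets the summed level in smooth muscle cells differed by a log2 ratio of 0.26 (0.23 to 0.29) for WT and 0.33 (0.30 to 0.36) for LysM-DKO, while the median of all genes was 0.00 in both. Etfb was the only gene past 1.5 fold, at 0.72 (0.63 to 0.82) for WT and 0.64 (0.55 to 0.74) for LysM-DKO, beside 11.4 and 8.5% of all genes. None was past it lower, beside 14.8 and 19.6%. Etfa followed at 0.41 (0.34 to 0.49) and 0.43 (0.34 to 0.51). Acadvl was at 0.31 (0.20 to 0.42) and 0.42 (0.31 to 0.54), and Hadha at 0.29 (0.20 to 0.38) and 0.33 (0.23 to 0.43).

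The carnitine shuttle genes were nearer to 0 or below it. Cpt1a was at -0.05 (-0.16 to 0.07) and -0.06 (-0.18 to 0.06), and Cpt2 at 0.21 (-0.10 to 0.53) and 0.13 (-0.19 to 0.47). Slc25a20 was at 0.04 (-0.17 to 0.25) for WT and -0.45 (-0.66 to -0.22) for LysM-DKO. Acadm (0.03 and 0.31), Acadl (0.13 and 0.47) and Hadhb (0.23 and 0.08) differed between the genotypes, which was not tested. Of the 10 ratios, 9 and 8 were positive, beside 50.4 and 49.8% of all genes. The 2 diet contrasts share no library with each other, but each shares its libraries with the genotype contrasts. With mitochondrial and ribosomal protein genes left out of the totals, the ratios of Acadm and Slc25a20 for WT turned from 0.03 and 0.04 to just under 0.

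Erythroid markers in smooth muscle barcodes summed to 13745, 23454, 470.5 and 70.4 CPM and dissociation stress genes to 22100, 16607, 14031 and 15626 CPM, so both differed between diets there. Their part in the result was not tested. Cardiomyocyte markers summed to 185, 176, 129 and 146 CPM and adipocyte markers to 9.94, 42.3, 9.60 and 14.4 CPM.

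Most other classes also had positive diet ratios of Etfb. The classes share their libraries, and each held smooth muscle RNA, in which Etfb differed between diets. How much of their ratios came from that RNA was not tested. For WT the western over normal diet ratio of Etfb was positive in 6 of 6 classes, with the interval above 0 in 5. It ran from 0.07 in fibroblasts to 1.58 (1.08 to 2.07) in T cells. For LysM-DKO it was positive in the 4 classes other than B and T, from 0.17 in fibroblasts to 0.64 in smooth muscle cells. In T cells it was 1.14 (-0.20 to 2.10), from 8 and 90 UMIs, and in B cells -0.53 (-6.42 to 1.38), from 1 and 235 UMIs. Both fibroblast ratios turned negative when scaled to the median of all genes, which was 0.13 and 0.18 there. Acadvl was positive in the same 6 and 4 classes under all 3 scalings tried, with the interval above 0 in 3 and 2. The endothelial class had Etfb past 1.5 fold for WT at 0.69 (0.44 to 0.94), 1 of 10 genes beside 12.3% of all genes.

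In the endothelial class none of the 10 was past 1.5 fold between genotypes on normal diet, beside 5.88% of all genes higher and 2.81% lower, or on western diet, beside 7.76 and 6.42%. None was lower between diets for WT, beside 15.3%, and none was past it between diets for LysM-DKO, beside 9.86 and 11.9%. Etfa and Etfb in this class were close to their smooth muscle levels. Etfa was at 91.4, 84.3, 116 and 109 CPM and Etfb at 51.6, 60.1, 83.3 and 89.0 CPM. Acadm there was at 109.9, 114, 87.7 and 115 CPM, lowest in WT/ApoE-/- on western diet. Smooth muscle cells had more Acadm, at 127, 124, 130.4 and 154 CPM, though the intervals of the classes overlapped for LysM-DKO on normal diet.

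T cells of WT had Acadvl (1.27, 0.60 to 1.90), Etfa (0.92) and Etfb past 1.5 fold higher on western diet, 3 of 9 genes beside 24.3% of all genes, and none lower, beside 9.66%. The Etfa ratio there was 0.10 among barcodes meeting 1 class rule. On normal diet T cells of LysM-DKO had Acadl (0.63) and Acadvl (1.11) past 1.5 fold above WT, 2 of 9 beside 11.6%, and none lower, beside 3.39%. B cells had Etfb (0.80), 1 of 9 beside 7.54%, and none lower, beside 4.43%. Between diets for WT none of 9 genes in B cells was past 1.5 fold, beside 13.2 and 13.3%. Fibroblasts had Cpt2 past 1.5 fold above WT/ApoE-/- in LysM-DKO/ApoE-/- on western diet (1.14, from 38 and 20 UMIs), 1 of 10 beside 7.75%, and none lower, beside 6.36%. No other gene of the 10 was past 1.5 fold in fibroblasts, beside 4.96 and 4.27% higher and lower between genotypes on normal diet, 20.8 and 13.6% between diets for WT and 17.6 and 8.5% for LysM-DKO. The diet ratio of the sum in fibroblasts was 0.08 (WT) and 0.12 (LysM-DKO), and both turned to -0.06 when scaled to the median of all genes.

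The B and T sums of LysM-DKO/ApoE-/- on western diet rest on 14 and 33 barcodes, and in this paragraph their ratios are given as counts only. Against WT/ApoE-/-, B cells had 2 genes past 1.5 fold higher and 2 lower of 5, beside 23.3 and 24.3% of all genes, and T cells had 0 and 1 of 5, beside 12.8 and 15.2%. Against LysM-DKO on normal diet, B cells had 2 and 3 of 9, beside 34.7 and 22.9%, and T cells 2 and 1 of 8, beside 24.0 and 19.2%.

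The other genes of mitochondrial β-oxidation were read from a list of 19 that leaves out the 10. Smooth muscle cells had 2 of 19 past 1.5 fold higher and 2 lower on western diet for WT, and 6 and 3 for LysM-DKO. All genes past it were 11.4 and 14.8% for WT and 8.5 and 19.6% for LysM-DKO. The list had medians of 0.37 and 0.27 beside 0.00 over all genes. Acads, the short-chain dehydrogenase, was at 8.55, 8.91, 13.3 and 17.6 CPM, log2 ratios of 0.63 (0.39 to 0.88) and 0.98 (0.73 to 1.24). Eci1, an isomerase for unsaturated chains, was at 27.0, 32.7, 38.3 and 63.0 CPM, and also 0.72 (0.63 to 0.81) above WT/ApoE-/- in LysM-DKO/ApoE-/-. On the lower side were Cpt1b, the muscle form of Cpt1, at 4.06, 3.03, 1.77 and 1.62 CPM, and the thioesterase Acot13 at 47.2, 46.6, 28.1 and 26.6 CPM.

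In macrophages 12 or 13 of the 19 had 50 UMIs in the contrasts that include WT/ApoE-/- on western diet. Decr1, a reductase for unsaturated chains, was at 6.28, 9.08, 22.8 and 7.12 CPM, from 3, 10, 89 and 5 UMIs. Hadh, the dehydrogenase for shorter hydroxyacyl chains, was at 31.4, 26.3, 51.4 and 28.5 CPM, and the hydratase Echs1 at 31.4, 17.3, 61.1 and 34.2 CPM. All 3 were past 1.5 fold lower in LysM-DKO/ApoE-/- than in WT/ApoE-/- on western diet, with log2 ratios of -1.55 (-3.33 to -0.40), -0.82 (-1.59 to -0.19) and -0.81 (-1.51 to -0.23). They were 3 of 13, beside 15.6% of all genes, none was past 1.5 fold higher, and the median of the list was 0.08. The same 3 were past 1.5 fold higher in WT/ApoE-/- on western diet than in WT on normal diet, 3 of 12 beside 35.9% of all genes, a contrast that shares the WT/ApoE-/- library.

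Single genes of fatty acid uptake and binding differed widely between libraries in macrophages. Those named here were picked for the largest ratios of their list. Fabp5, a fatty acid binding protein, was at 79.6, 929, 2130 and 1798 CPM. Lpl, the lipase that frees fatty acids from lipoprotein triglyceride, was at 44.0, 49.1, 417 and 195 CPM. Cd36, a receptor for fatty acids and oxidized lipoprotein, was at 551, 312, 97.2 and 198 CPM, the reverse order of Lpl between diets. Of the 10 uptake and binding genes with 50 UMIs, 6 were past 1.5 fold higher and 1 lower in WT/ApoE-/- on western diet than in WT on normal diet, beside 35.9 and 14.7% of all genes, with a median of 0.68 beside 0.28 over all genes. Between the LysM-DKO libraries 2 were higher and 3 lower of 8, beside 17.9 and 11.9% of all genes. The median was -0.28 there, beside 0.10 over all genes. The medians of the 10 genes were 0.56 for WT and 0.28 for LysM-DKO.

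Among the 10 activating acyl-CoA synthetases listed, Acsl1 was in macrophages at 77.5, 65.4, 91.5 and 55.6 CPM. Its genotype ratio on western diet was -0.70 (-1.24 to -0.24), beside 15.6% of all genes past 1.5 fold lower. Ppargc1a, a coactivator of mitochondrial genes, was in smooth muscle cells at 5.62, 8.03, 3.20 and 4.48 CPM. It was past 1.5 fold lower on western diet for WT (-0.81, -1.19 to -0.43) and LysM-DKO (-0.84, -1.16 to -0.52). Past 1.5 fold lower there were 14.8 and 19.6% of all genes. Acsl1 and Ppargc1a were each named for the size of their ratio within a list.

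Genes of the nuclear respiratory chain were read as another set of mitochondrial genes, and they do not measure mitochondrial content. In macrophages 13 of 21 were past 1.5 fold higher and none lower in WT/ApoE-/- on western diet than in WT on normal diet, beside 35.9 and 14.7% of all genes, with a median of 0.69 beside 0.56 for the 10 genes and 0.28 over all genes. Between the LysM-DKO libraries 3 of 21 were, beside 17.9% of all genes, with a median of 0.10 beside 0.28 for the 10 genes and 0.10 over all genes. In smooth muscle cells the medians were 0.11 and 0.15, beside 0.22 and 0.32 for the 10 genes. For the TCA cycle the smooth muscle medians were 0.07 and 0.10 and none of 17 genes was past 1.5 fold, beside 11.4 and 8.5% of all genes higher and 14.8 and 19.6% lower.

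**Figure D5:**
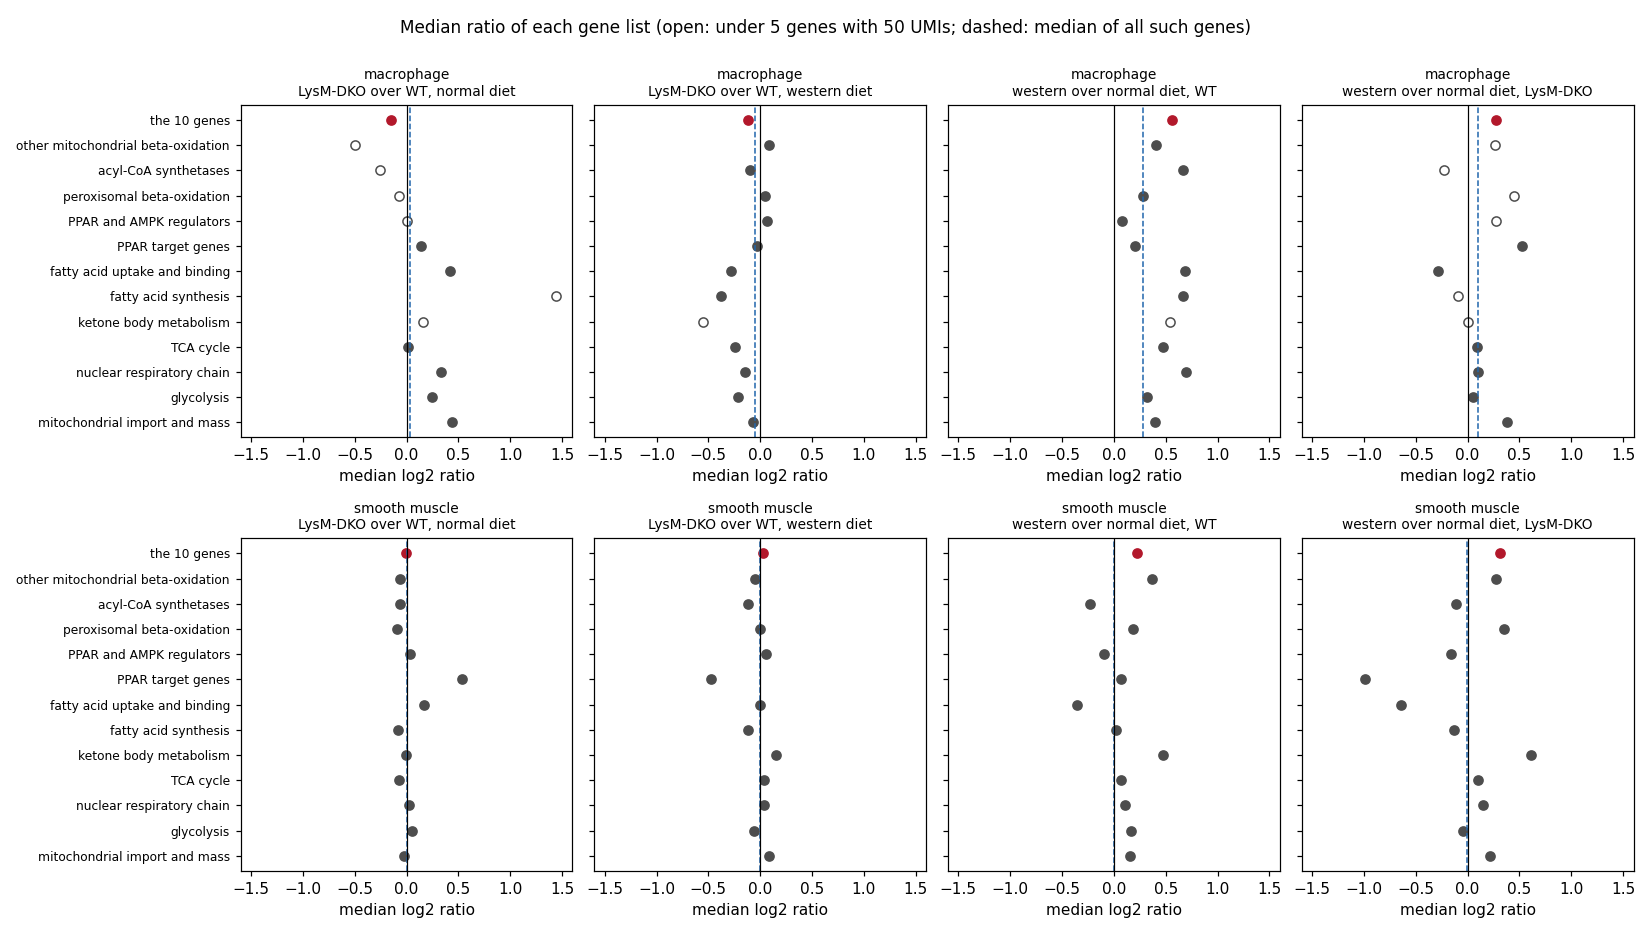
Median log2 ratio (horizontal axes) of the 10 genes (red) and of 12 lists of related genes (grey, open where fewer than 5 genes had 50 UMIs) in macrophages (top) and smooth muscle cells (bottom), with the median of all genes as a dashed line. In smooth muscle cells the medians of the 10 genes were near 0 between genotypes and at 0.22 and 0.32 between diets.

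Across the 23 class sums with at least 100000 UMIs, the genes whose log2(CPM + 1) followed the summed level of the 10 genes most closely were Emc9 (Pearson r 0.96), Bmyc (0.95), Cd9 (0.95), BC031181 (0.94) and Smim10l1 (0.94), among 15039 genes. Lgals1, Cenpb, Cryab, Acadsb and Htra1 followed at 0.94 to 0.93. Acadsb, the dehydrogenase of short branched chains, was the only one of these from the wider β-oxidation list. Of the 10 genes themselves, Etfa had the highest r with their sum (0.93), and Hadha (0.12), Hadhb (-0.02) and Slc25a20 (-0.11) had almost none. Each gene is part of the sum it was set against, which raises r for the genes with most UMIs. The points share libraries, depth and smooth muscle RNA, so these values describe the sums only.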

How the data were processed

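Aortic cells of 4 groups were measured with a 10x Genomics 3' kit (v3.1), 1 library per group. The deposited matrices hold unscaled UMI counts per gene and barcode. Cell Ranger 6.0.1 (normal diet) and 6.1.2 (western diet) produced them, per the file headers. The submitters' processing notes name Cell Ranger 6.1.2, Seurat 4.1.0 and mm10. The 4 matrices held 51281643, 50662515, 67450979 and 62510744 UMIs.

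A barcode was kept from 1000 UMIs upward if no more than 10% of them were mitochondrial. Each took the first class whose markers it met: macrophage (C1qa, C1qb and C1qc, at least 5 UMIs), B (Cd79a and Ms4a1, 2), T (Cd3d, Cd3e and Trac, 2), endothelial (Pecam1 and Cdh5, 2), fibroblast (Pdgfra and Serpinf1, 3) or smooth muscle (Myh11 and Cnn1, 3). No doublet caller was run, and barcodes meeting 1 rule only served as the alternative. Levels carry exact Poisson intervals. Ratios had 0.5 UMIs added and carry Clopper-Pearson intervals given both counts. The ratio script was tested on simulated data. A ratio was counted as past the fold at 1.5 fold with at least 50 UMIs over both libraries. With 1 library per group there was no test.

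The 10 genes were always named, and from each list up to 3 genes per direction past the fold could be. The 10 genes by most similar pattern were ranked by Pearson r. The genes, lists and rules were chosen with earlier results of these data known. Locations are from GENCODE M21 on GRCm38 by gene ID, which 99.6% of features matched. Aldoa was left out of the glycolysis list because 2 features share its symbol. The work used pandas 2.3.3, scipy 1.17.1, numpy 2.4.6 and matplotlib 3.10.9 in Python 3.11.15.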

Additional observations from a re-analysis of the deposited data

How the results depend on the processing

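No paired analysis was possible because each group is 1 library, and for the same reason no library could be left out of a group. In all, 69 values were recomputed for the summed ratios of macrophages and smooth muscle cells and for the count past 1.5 fold. Of these, 57 stayed within counting error or, for the count, within 1.5 times. The 57 include the smooth muscle sums under 1 class rule only, which could not change, since 0 barcodes of that class met another rule. That setting included, the smooth muscle diet ratio stayed within counting error in 3 of 7 settings for WT and 5 of 7 for LysM-DKO. The macrophage diet ratio of the sum for WT was 0.22 with median-ratio scaling, where the median of all genes was shifted. In smooth muscle cells the genotype ratio on western diet was 0.087 with mitochondrial and ribosomal protein genes left out of the totals, 0.084 with equal weight for each cell and 2.6e-06 without Acadm. The diet ratio for WT was 0.32 with up to 20% mitochondrial UMIs, 0.22 with the reduced totals, 0.33 with equal weight and 0.31 without Acadm. The diet ratio for LysM-DKO was 0.39 with up to 20% mitochondrial UMIs and 0.46 with equal weight. For these shifts the cause was not tested. Over all 6 classes and 4 contrasts 32 of 213 gene ratios were past 1.5 fold and 14 at 2 fold. Without the B and T sums of LysM-DKO/ApoE-/- on western diet 19 of 186 were past 1.5 fold. That alternative was chosen after seeing the data, as was the Acta2 subtraction. The share of all genes past 1.5 fold in 1 direction ran from 2.18 to 35.9% over these classes and contrasts. It was not pooled over them, so these counts compare settings only. Reversals were seen for 3 B cell ratios that involve those 14 barcodes: Acadm between genotypes on western diet (-0.40 with at least 2000 UMIs per barcode), and, with 1 class rule only, Hadhb between genotypes on western diet (0.095) and Slc25a20 between diets for LysM-DKO (0.41). Depth limits the macrophage values, where Cpt2 rests on 1 to 20 UMIs per library, and the B and T sums of LysM-DKO/ApoE-/- on western diet, with 50189 and 120789 UMIs.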

Other observations

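Barcodes outside the classes held the 10 genes as well. In barcodes that met no class rule (1105, 1138, 2123 and 244 barcodes) the summed level was 366 (343 to 390), 429 (403 to 455), 504 (485 to 523) and 532 (486 to 581) CPM. In barcodes with at least 1000 UMIs and over 10% mitochondrial UMIs, which numbered 4285, 5320, 1804 and 1763, it was 411 (398 to 425), 430.5 (418 to 443), 511 (489 to 534) and 525 (504 to 546) CPM. Both pools gave the order of the libraries seen in smooth muscle cells between diets, with the normal diet libraries below the western diet libraries. They made up 31.0, 33.6, 6.07 and 15.4% of barcodes for the second pool, so the share set aside by the mitochondrial limit itself differed between diets.

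Over all kept barcodes the 10 genes summed to 525, 521, 640 and 697 CPM.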
